A study of Mus musculus with 2 samples.

Results

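The serpins outside coagulation are described here in embryonic mouse liver. They are the protein-coding genes whose GENCODE M21 symbol begins with Serpin, without Serpinc1, Serpind1, Serpinf2, Serpina5 and Serping1, which act in blood coagulation, fibrinolysis and the contact and complement systems. The rule gave 56 genes of the 21951 protein-coding genes present for both libraries, and it used no measured value. Another 7 entries with a Serpin symbol are pseudogenes in the annotation and are no members. Polyadenylated RNA was sequenced from livers of healthy B6NCrl mouse embryos at 12.5 days of development. Male and female embryos were pooled, with 120 embryos in replicate 1 and 88 in replicate 2, and the labels name no treatment or altered allele. Each library started from 10 ng of RNA with ERCC spike-in RNAs added. All samples form 1 group, so no p-value was computed. Values after ± are the SD over the 2 pools, and paired values give replicate 1 and then replicate 2.

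Most serpins are protease inhibitors that work by trapping. A protease cuts a bond in an exposed stretch, the reactive centre loop, and the serpin then changes shape and holds the protease in an inactive complex. The residue just before the cut bond largely sets which protease is trapped. Some members have lost inhibition and carry hormones, fold collagen or signal to other cells. In liver, clade A serpins are secreted by hepatocytes into plasma, while clade B serpins stay inside cells, among them blood cells and epithelia. Humans have a single gene for alpha-1-antitrypsin, the inhibitor of neutrophil elastase, whereas the mouse strain studied has several copies named Serpina1a to Serpina1f.

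The loop is where the copies of alpha-1-antitrypsin part, so the coding sequence of that stretch is shown first for the 5 closely related copies. Each line gives 60 bases, 5′ to 3′ on the minus strand of mm10, for the 15 codons before the cut bond and the 5 after it, all in exon 5 of the GENCODE M21 transcript. Capitals mark the bases that differ among the 5 copies. The positions are chr12:103853771-103853830 for Serpina1a, chr12:103728338-103728397 for Serpina1b, chr12:103895108-103895167 for Serpina1c, chr12:103763776-103763835 for Serpina1d and chr12:103947114-103947173 for Serpina1e.
Serpina1a: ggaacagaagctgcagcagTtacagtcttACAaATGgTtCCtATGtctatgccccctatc
Serpina1b: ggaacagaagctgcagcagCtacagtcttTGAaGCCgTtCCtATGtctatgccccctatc
Serpina1c: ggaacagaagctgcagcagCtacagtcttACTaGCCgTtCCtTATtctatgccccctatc
Serpina1d: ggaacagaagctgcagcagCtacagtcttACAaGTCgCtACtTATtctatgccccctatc
Serpina1e: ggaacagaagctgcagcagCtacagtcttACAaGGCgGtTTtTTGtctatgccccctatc
The last capitals in each line are the codon before the cut bond. It is ATG, for methionine, in Serpina1a and Serpina1b, as in the human protein. It is TAT, for tyrosine, in Serpina1c and Serpina1d, and TTG, for leucine, in Serpina1e.

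For comparison, the matching stretch of the 4 most abundant other members is given. Each begins at the codon aligned to the first codon of the Serpina1a stretch. Capitals mark codon 15 and the next, counted from there without gaps, so a gap within the loop would shift them. All 4 are on the minus strand of mm10. Serpina6 is at chr12:103646936-103646995 in exon 5, Serpinh1 at chr7:99346231-99346290 in exon 6, Serpinf1 at chr11:75410230-75410289 in exon 8 and Serpina10 at chr12:103616933-103616992 in exon 5. Serpina6, Serpinh1 and Serpinf1 are known as serpins that do not inhibit proteases, and for them the capitals only mark that place.
Serpina6: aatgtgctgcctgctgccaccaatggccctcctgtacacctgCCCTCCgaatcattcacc
Serpinh1: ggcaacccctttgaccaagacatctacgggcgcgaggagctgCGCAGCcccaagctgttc
Serpinf1: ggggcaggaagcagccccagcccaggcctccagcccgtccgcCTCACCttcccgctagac
Serpina10: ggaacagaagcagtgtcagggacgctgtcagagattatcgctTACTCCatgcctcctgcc
The proteins of Serpina6, Serpinf1, Serpina10 and Serpinh1 were identical to that of Serpina1a at 34.8%, 25.7%, 24.4% and 24.1% of aligned positions, and those of Serpina1b to Serpina1e at 94.2% to 97.3%.

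The family was carried by few genes. Levels are in TPM, the usual length-scaled measure of transcript abundance, in which each count is divided by the effective transcript length and by the library's sum of such values, so different genes can be set side by side. The 56 members summed to 1912 TPM in one library and 1863 TPM in the other, a mean of 1888 ± 34.7 TPM (SD, n = 2) or 0.189% of all TPM. Serpina6 alone held 46.0% of this sum, the 3 highest members 72.9% and the 7 highest 94.8%. The 5 serpins left out summed to 628 and 599 TPM, so that the members exceeded them 3.08-fold ± 0.0484.

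A mean of at least 1 TPM was reached by 17 of 56 members (30.4%), against 11953 of 21951 protein-coding genes (54.5%). At 10 TPM there were 11 members (19.6%), against 32.1% of protein-coding genes. At 100 TPM there were 5 members (8.93%), against 5.40%. No count in either library was found for 21 of 56 members, against 4685 of 21951 protein-coding genes (21.3%). The median member had 0.025 TPM and the median protein-coding gene 1.87 TPM. The members' share was thus larger than that of protein-coding genes at 100 TPM and among genes with no count, and smaller at 1 and 10 TPM. No test was made of these shares.

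**Figure D1:**
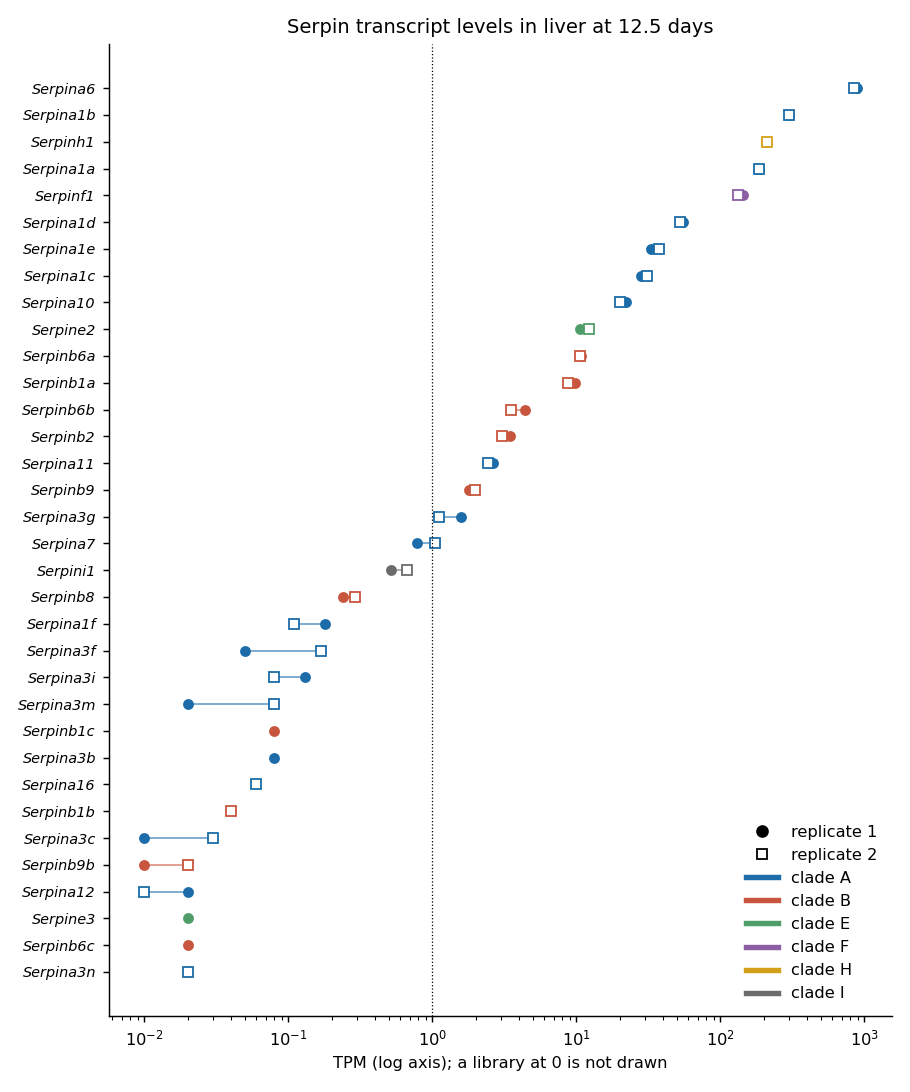
TPM of 34 members with a count in either library (horizontal log axis), ordered by mean; filled circles are replicate 1, open squares replicate 2, colours the serpin clade and the dotted line 1 TPM. Serpina6 lies highest at 887 and 848 TPM, and members below 0.2 TPM differ most between the libraries.

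By clade, clade A held 79.4% ± 0.0598 of the members' TPM with 9 of its 23 genes at 1 TPM. Serpinh1, the sole clade H gene, held 11.1% ± 0.264 and Serpinf1, the sole clade F member, 7.32% ± 0.334. Clade B has the most genes, 26, but held 1.56% ± 0.0605 with 5 of them at 1 TPM and 16 without a count. The 3 clade E genes held 0.608% ± 0.0644 and the 2 clade I genes 0.0316% ± 0.00620. The order of levels was mostly the same in both libraries. Of the 16 neighbouring pairs among the 17 members at 1 TPM, only Serpine2 and Serpinb6a had library values that overlapped. The deposited intervals of TPM overlapped for further neighbours among the lower members, whose order is therefore less sure. In replicate 1 these included Serpinb6a (10.6 to 13.1 TPM) with Serpinb1a (8.79 to 11.9 TPM), and Serpinb9 (1.51 to 2.01 TPM) with Serpina3g (1.32 to 2.24 TPM).

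Markers of several cell types were measured beside the members, because in bulk tissue fewer cells of a type and less RNA per cell cannot be told apart. All 10 hepatoblast markers reached 10 TPM, with a median of 662 TPM and Afp, alpha-fetoprotein, at 5250 and 5065 TPM, and all 7 red cell markers stood at 100 TPM or more, around a median of 433 TPM. The median was 35.6 TPM for 7 megakaryocyte genes, 17.2 TPM for 7 macrophage genes, 23.1 TPM for 7 endothelial genes, 40.8 TPM for 9 mesenchyme genes and 5.80 TPM for 6 mesothelium genes. Genes of tissues outside the liver were mostly low. At 1 TPM stood 1 of 8 lymphoid, 2 of 7 epidermal, 1 of 6 exocrine pancreas and 2 of 6 neural genes. The medians were 0.055, 0.195, 0.103 and 0.648 TPM in that order. Cela1, of the exocrine pancreas list, was the highest of these genes with 9.24 and 7.25 TPM. Gap43, of the neural list, followed with 7.45 and 6 TPM. The labelled tissue thus carried its defining markers. Which cells the serpin messages came from was not measured.

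Serpina6 encodes corticosteroid-binding globulin, the plasma carrier of glucocorticoids. The gene lies on chromosome 12 (mm10, 103646630 to 103657212, minus strand). It had 887 and 848 TPM, from 43608 and 38607 expected counts, and ranked 80 of 21951 protein-coding genes. Its level was close to that of Alb, the albumin gene, with a ratio of Serpina6 over Alb of 1.02 in replicate 1 and 0.959 in replicate 2. Afp exceeded it 5.94-fold ± 0.0368. The transcript Serpina6-201, which encodes the full protein, held 99.9% of its TPM in both libraries. No 100-base window of that transcript occurs in another gene, so its counts do not rest on dividing reads between copies.

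Serpina7 encodes thyroxine-binding globulin, the other hormone carrier of the family, and lies on chromosome X. It stood just below the threshold, with 0.78 and 1.04 TPM from 57 and 51 counts. Serpina6 exceeded it 977-fold ± 227. Counts and TPM of Serpina7 thus ordered the libraries in opposite ways, at about the same low depth. The effective length by which its counts were divided was 2231 bases in replicate 1 and 1614 in replicate 2. The log2 ratio of its scaled counts, replicate 1 over replicate 2, was 0.05, so the spread of the fold includes this difference in length.

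The genes that meet these hormones were measured as a list of 11 carriers, receptors and converting enzymes, of which 8 stood at 1 TPM or more and whose median was 11.0 TPM. Alb had 870 and 885 TPM, Ttr, transthyretin, 196 and 196 TPM, Gc, the vitamin D binding protein, 28.3 and 39.5 TPM, and Shbg, sex hormone-binding globulin, 29.3 and 27.6 TPM. The glucocorticoid receptor gene Nr3c1 had 18.8 and 18.9 TPM. Hsd11b2, whose enzyme inactivates glucocorticoids, had 5.61 and 5.01 TPM, while Hsd11b1, whose enzyme regenerates them, had 0.75 and 0.99 TPM. Dio1 and Dio3, deiodinases of thyroid hormone, were under 1 TPM at 0.06 and 0.06 TPM and at 0.34 and 0.11 TPM, with Dio3 from 21 and 6 counts.

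The Serpina1 genes are named as mouse copies of the gene for alpha-1-antitrypsin, whose human product inhibits neutrophil elastase. Which proteases each mouse copy inhibits was not measured. Together Serpina1a to Serpina1e had 603 and 607 TPM. Serpina6 exceeded this sum 1.44-fold ± 0.0519, and the sum stood at 0.689 ± 0.00538 of the level of Alb. The level was divided unevenly among the copies. Serpina1b (chromosome 12, 103728156 to 103830373, minus strand) led with 299.9 and 300.2 TPM, followed by Serpina1a (103853589 to 103863562) with 187 and 185 TPM. Serpina1d (103763594 to 103773592) had 55.1 and 52.8 TPM, and Serpina1e (103946931 to 103958975) had 32.8 and 37.4 TPM. Serpina1c (103894926 to 103904887) had 28.1 and 30.8 TPM. None of these 5 overlapped a neighbour in the order, and Serpina1b exceeded Serpina1c 10.2-fold ± 0.658.

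As shares of the summed TPM of the Serpina1 copies, Serpina1b held 49.6% ± 0.184, Serpina1a 30.8% ± 0.301, Serpina1d 8.92% ± 0.316, Serpina1e 5.80% ± 0.513 and Serpina1c 4.87% ± 0.296. The sixth copy, Serpina1f, had 0.18 and 0.11 TPM from 11 and 9 counts. Its protein matched those of the other copies at 30.8% to 32.3% of positions, and it shared no 100-base window with them.

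**Figure D2:**
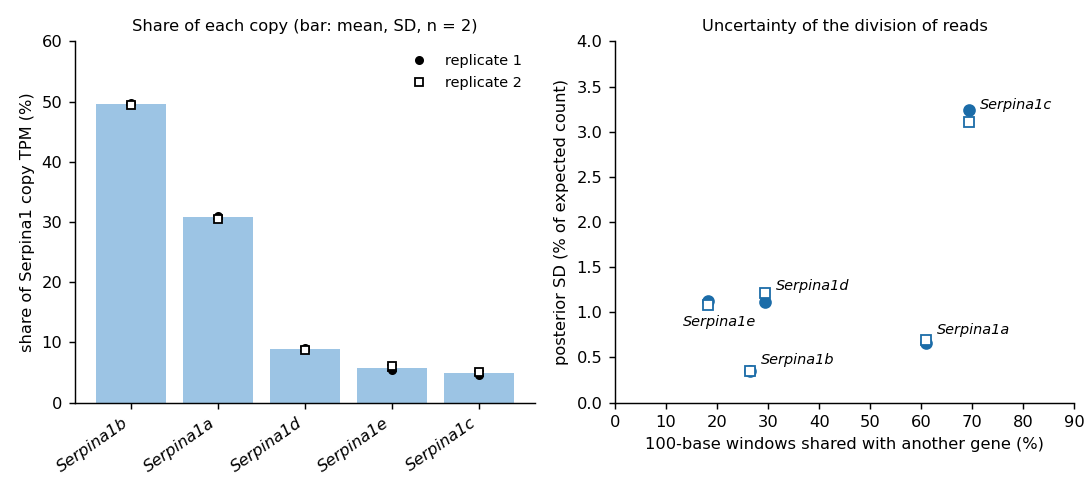
Left, the share of the summed Serpina1 TPM held by each copy (%, bar is the mean, error bar the SD, n = 2, points are the libraries). Right, the posterior SD of each copy's count (% of the expected count) against the share of its 100-base windows found in another gene (%). Serpina1b holds 49.6% of the TPM and Serpina1c, with 69.3% of windows shared, has posterior SDs of 3.24% and 3.11%.

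Reads from near-identical copies can be divided wrongly, and the deposited posterior SD states how uncertain that division was. For Serpina1c it was 3.24% of the expected count in replicate 1 and 3.11% in replicate 2. For Serpina1d it was 1.11% and 1.21%, and for Serpina1e 1.13% and 1.08%. For Serpina1a it was 0.658% and 0.694%, and for Serpina1b 0.348% and 0.353%. Serpina1f, which shares no windows, had 0% in both. Over 13983 protein-coding genes with at least 10 counts in each library the median was 0% in both, and the 90th percentile was 0.915% and 0.959%. Serpina1c, Serpina1d and Serpina1e therefore lay above that percentile and Serpina1a and Serpina1b below it.

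Of the 5 close copies, only Serpina1c had a posterior SD that exceeded the square root of the count, at 37.6 against 34.0 counts in replicate 1 and 36.6 against 34.3 counts in replicate 2. The share of 100-base windows found in any other gene was 69.3% for Serpina1c, 61.0% for Serpina1a, 29.3% for Serpina1d, 26.4% for Serpina1b and 18.2% for Serpina1e. Serpina1a shared 732 windows with Serpina1c, 58.0% of the windows of each. Serpina1a shares nearly as many windows as Serpina1c and had a smaller posterior SD as a percentage of its count, with 7689 and 7063 counts against 1159 and 1177 counts. In counts its posterior SD was the larger, at 50.6 and 49.0 against 37.6 and 36.6. The pseudogene Gm8893 shares windows with all 5 copies and was given 4.67 TPM in both libraries. The division of reads within the group does not enter the group sum.

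Seen by the codon before the cut bond, the copies with methionine held 80.4% ± 0.492 of the summed TPM of Serpina1a to Serpina1e, with 486.7 and 486 TPM. The copies with tyrosine held 13.8% ± 0.0208, with 83.2 and 83.6 TPM. The copy with leucine held 5.80% ± 0.513, with 32.8 and 37.4 TPM. These shares follow directly from the levels above, and the messages were not tested for the protein they yield.

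All 5 copies have a coding sequence of 1239 bases without the stop codon, so they could be compared base by base. Pairs differed at 19 bases for Serpina1a and Serpina1c, the closest pair, and at up to 46 for Serpina1e with Serpina1b or Serpina1d. In the loop shown above, 13 of 60 bases differed among the copies (21.7%), against 73 of the 1179 other coding bases (6.19%). All 7 loop codons that vary change the amino acid, which is 35% of the 20 loop codons. Outside it, 40 of 393 codons (10.2%) change the amino acid. Windows of 60 bases in frame held a median of 4 differing bases and a maximum of 18, which was reached in windows that overlap the loop. Of 355 windows clear of the loop, none held more than 13 differing bases and 6 held 13, with first codons from 286 to 291.

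**Figure D3:**
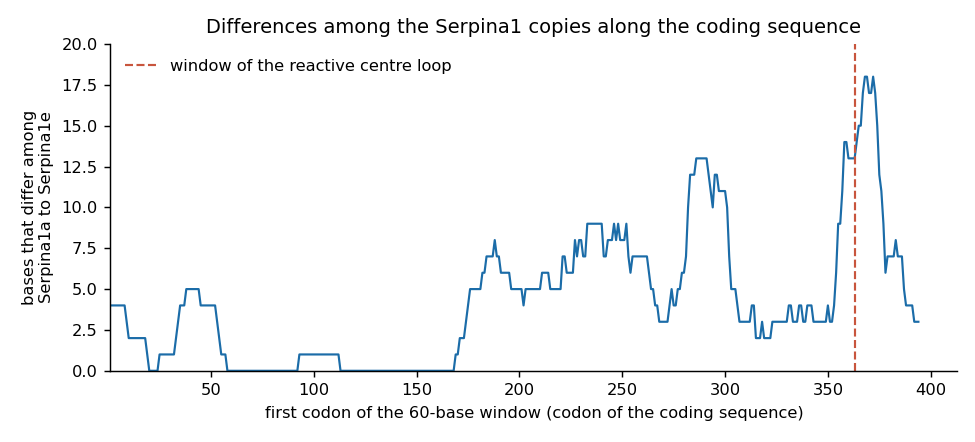
Number of bases that differ among Serpina1a to Serpina1e in each 60-base window (vertical axis) against the window's first codon in the coding sequence (horizontal axis); the dashed line marks the window of the reactive centre loop, which begins at codon 363 of 413. That window holds 13 differing bases, the highest window 18 and the median window 4.

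The promoters of these copies are alike as well. Over the 250 bases before the RefSeq start (GRCm38.p6, minus strand), Serpina1c matched Serpina1b at 91.6% of aligned positions, with 21 differences, while their levels stood 10.2-fold apart. Serpina1a, Serpina1d and Serpina1e matched Serpina1b at 92.2%, 92.5% and 97.0% over aligned stretches of 245, 241 and 200 bases.

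RefSeq held a promoter of 300 bases for 48 members, from 250 bases before to 50 after the start. On either strand, the letters TATAAA, the core promoter element of that name, stood in 15 of these 48, and in 1 of the 14 such members at 1 TPM, Serpinb2, against 13.6% of 32851 promoters of that length. CAAAGTCC, an HNF4 site, stood in 1 member, Serpinh1, against 1.42% of all, and TTGCGCAA, a C/EBP site, in 0 of 48, against 0.183%. No 2 of these motifs overlap in the letters searched. A member was counted where any of its promoters held the letters, while the share of all is over single promoters. Members and background are therefore not counted alike. A match gives letters only, and binding was not measured.

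Liver transcription factors known to act on serpin genes were a list of 11, and all stood at 1 TPM or more, around a median of 6.38 TPM. Stat3 had 31.3 and 33.5 TPM, Foxa3 22.3 and 21.2 TPM, Cebpb 18.3 and 19.6 TPM and Hnf4a 12.9 and 12.6 TPM.

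Genes that fold, export or degrade alpha-1-antitrypsin in the secretory pathway were a list of 13. All reached 1 TPM and 12 of them 10 TPM, around a median of 32.6 TPM. The chaperone genes Calr and Canx had 512 and 493 TPM and 222 and 213 TPM. The cargo receptor genes Surf4 and Lman1 had 104 and 99.99 TPM and 71.4 and 71.1 TPM.

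Among 10 neutrophil and mast cell granule genes, 4 reached 1 TPM, 6 did not, and the median was 0.118 TPM. Mpo, myeloperoxidase, a neutrophil granule enzyme that is not a protease, had 175 and 181 TPM, Prtn3, proteinase 3, 32.4 and 32.1 TPM, Elane, neutrophil elastase, 10.1 and 12.9 TPM and Ctsg, cathepsin G, 3.39 and 4.43 TPM. Mcpt4 and Tpsab1, proteases of mast cells, had no count in either library. The sum of Serpina1a to Serpina1e exceeded Elane 53.3-fold ± 8.75. This sum includes copies with tyrosine or leucine before the cut bond, and which copies inhibit elastase was not measured.

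Other clade A serpins surround these copies on chromosome 12. The 22 members on that chromosome held 79.3% ± 0.0492 of the members' TPM, with 9 at 1 TPM and 4 without a count. Serpina10 (103614786 to 103631444, minus strand) encodes the protein Z-dependent protease inhibitor, which blocks activated factor X and was not among the genes left out by the rule. It had 22.2 and 20.05 TPM. Serpina11 (103980243 to 103989957, minus strand) had 2.65 and 2.43 TPM from 118 and 100 counts. In Serpina11, 41.9% of 100-base windows also occur in the overlapping transcript Gm28577, which was given 0 counts. Serpina16 had 0 and 2 counts, Serpina12, the gene of vaspin, 2 and 1, and Serpina9 0 in both.

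**Figure D4:**
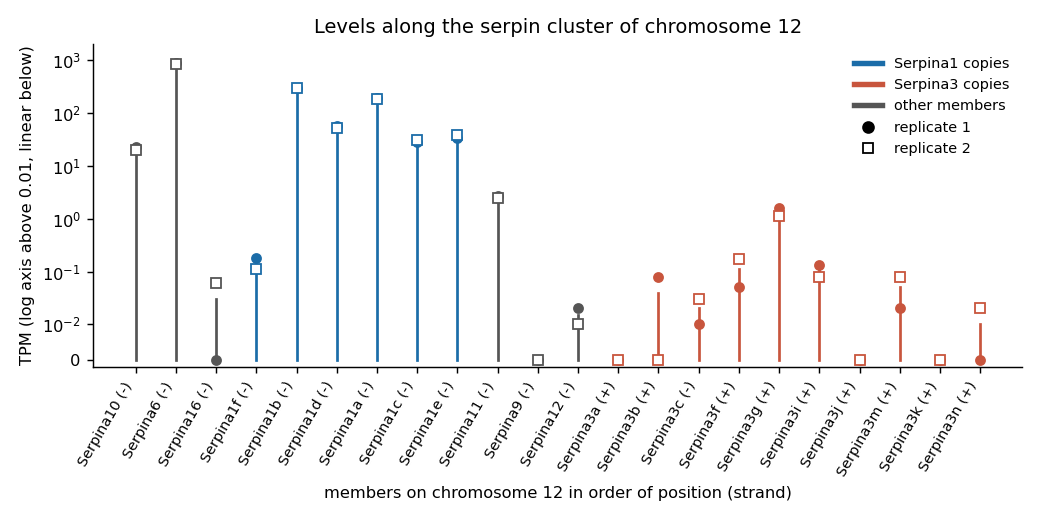
TPM of the 22 members on chromosome 12 in order of position, with the strand in brackets (vertical axis logarithmic above 0.01 TPM and linear below); lines reach the mean, filled circles are replicate 1 and open squares replicate 2. All members at 20 TPM or more lie between Serpina10 and Serpina1e, ends included, and Serpina3g is the only Serpina3 copy above 1 TPM.

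The Serpina3 copies are the mouse relatives of human alpha-1-antichymotrypsin. Their 10 genes had 1.88 and 1.49 TPM in sum, and the Serpina1a to Serpina1e sum exceeded this 364-fold ± 61.2. Serpina3g, whose product Spi2A inhibits cathepsins inside blood cells, held 79.5% ± 7.13 of it. It stood just above the threshold with 1.59 and 1.11 TPM from 71.9 and 47.7 counts.

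The other copies rested on few counts. Serpina3f had 0.05 and 0.17 TPM from 3 and 10.1 counts, and Serpina3i 0.13 and 0.08 TPM from 9.10 and 5.15 counts. Serpina3m had 0.02 and 0.08 TPM from 1 and 4 counts, and Serpina3c 0.01 and 0.03 TPM from 1 and 2 counts. Serpina3b had 0.08 TPM from 5 counts in replicate 1 and 0 in replicate 2, and Serpina3n had 0 in replicate 1 and 0.02 TPM from 1 count in replicate 2. At these depths the copies cannot be ordered. Serpina3a, Serpina3j and Serpina3k had no count.

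The posterior SD of Serpina3g was 0.570% and 1.15% of its count. For Serpina3i it was 3.85% and 9.13%, for Serpina3f 0% and 3.25% and for Serpina3m 0% and 9.00%. For Serpina3c it was 0% in both libraries, and for Serpina3b and Serpina3n it was 0% where a count was given. The Serpina3 copies shared at most 6.09% of their 100-base windows with another gene, reached by Serpina3m with Serpina3k. In each of these copies with a count, the posterior SD was below the square root of the count.

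Serpinh1 encodes HSP47, a chaperone of the endoplasmic reticulum that binds folding procollagen. The gene lies on chromosome 7 (99345376 to 99353239, minus strand) and had 208 and 210.1 TPM from 13887 and 12956 counts. Its list of 16 collagen genes and folding enzymes all reached 1 TPM, 12 reached 10 TPM, and the median was 22.0 TPM. P4hb and Ppib, a subunit of prolyl hydroxylase and a cyclophilin, had 393 and 371 TPM and 329 and 333 TPM. The collagen genes Col3a1 and Col1a1 had 161 and 161 TPM and 114 and 128 TPM. Serpinh1 exceeded Col1a1 1.74-fold ± 0.138.

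Serpinf1 encodes pigment epithelium-derived factor, a secreted serpin that acts on blood vessels and bone. It lies on chromosome 11 (75409769 to 75422701, minus strand) beside Serpinf2, the gene of alpha-2-antiplasmin. Serpinf1 had 144 and 132 TPM, and Serpinf2 had 314 and 293 TPM, so that the ratio of Serpinf1 over Serpinf2 was 0.455 ± 0.00695. The other coagulation serpins were Serpinc1, the antithrombin gene, with 195 and 189 TPM, Serpind1, heparin cofactor II, with 93.2 and 89.4 TPM, Serping1, the C1 inhibitor, with 25.8 and 27.0 TPM, and Serpina5 with no count.

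The clade E genes encode inhibitors of plasminogen activators and thrombin. Serpine2, protease nexin-1 (chromosome 1, 79794197 to 79861180, minus strand), had 10.6 and 12.2 TPM. Serpine3 had 1 count in replicate 1 and 0 in replicate 2, in a gene that overlaps Ints6 on the other strand.

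Of 9 genes of the plasminogen activator system, 7 stood at 1 TPM or more, and the median was 7.36 TPM. Vtn, vitronectin, had 187 and 172 TPM and Plg, plasminogen, 116 and 117 TPM. Hpn, the membrane protease hepsin, had 30.3 and 27.8 TPM and Lrp1, a receptor that clears serpin complexes, 19.1 and 22.2 TPM. Plau, the urokinase gene, and St14, the matriptase gene, were under 1 TPM at 0.41 and 0.41 TPM and at 0.32 and 0.23 TPM. Serpine2 exceeded Plau 27.7-fold ± 2.74.

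Intracellular clade B serpins lay between 1 and 11 TPM or were near absent. Serpinb6a, an inhibitor of cathepsin G (chromosome 13, 33917918 to 34002794, minus strand), had 10.8 and 10.6 TPM. Serpinb1a, an inhibitor of neutrophil elastase, proteinase 3 and cathepsin G (chromosome 13, 32842092 to 32851185, minus strand), had 9.83 and 8.77 TPM. The ratio of Serpinb1a over Elane was 0.969 in replicate 1 and 0.680 in replicate 2. Serpinb1a thus had a level of the same order as Elane. Its other targets named here lay further off, Prtn3 with 32.4 and 32.1 TPM and Ctsg with 3.39 and 4.43 TPM.

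Serpinb6b (chromosome 13, 32965209 to 32979067, plus strand) had 4.39 and 3.51 TPM. Serpinb2, the plasminogen activator inhibitor PAI-2 (chromosome 1, 107511423 to 107535478, plus strand), had 3.49 and 3.03 TPM, and it overlaps exons of Serpinb10 on the same strand. Serpinb9, the inhibitor of granzyme B (chromosome 13, 33003250 to 33017957, plus strand), had 1.79 and 1.99 TPM from 193 and 198 counts. Serpinb6a overlaps exons of Nqo2, Ripk1 and 1110046J04Rik on the other strand. The use of strand in counting is not given in the sources used here, so reads of overlapping genes may not be told apart.

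Granule and lysosomal proteases that clade B serpins and Serpina3g inhibit differed from each other. All 6 cytotoxic granule genes were under 1 TPM, with a median of 0.02 TPM and Gzmm and Gzmb at 0.22 and 0.34 TPM and at 0 and 0.05 TPM. Gzma, Gzmc and Prf1, the perforin gene, each had a mean of 0.02 TPM. Of the cathepsins, 5 genes were measured and all stood at 1 TPM or more, around a median of 21.5 TPM. Ctsb had 416 and 415 TPM, and 204 and 203 TPM under GENCODE M4, the older annotation, so its level depends on the annotation. Ctsl had 98.0 and 90.5 TPM, Ctsh 19.5 and 23.5 TPM and Ctss 11.2 and 12.3 TPM.

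Below 1 TPM stood 39 members, of which 18 had a count. Among these, clade A held Serpina7, Serpina12, Serpina16, Serpina1f and 6 Serpina3 copies. Clade B held Serpinb8 at 0.24 and 0.29 TPM, Serpinb1b, Serpinb1c, Serpinb6c and Serpinb9b, the last 4 at 0.08 TPM or less in each library. Clade I held Serpini1, neuroserpin, at 0.52 and 0.67 TPM, and clade E held Serpine3. Only 3 of the 18 had at least 10 counts in both libraries, and 8 had no more than 3 counts in either.

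The 21 members with no count were Serpina3a, Serpina3j, Serpina3k and Serpina9 in clade A, Serpini2 in clade I and 16 genes of clade B. The clade B genes were Serpinb3a to Serpinb3d, Serpinb5, the maspin gene of epithelia, Serpinb6d, Serpinb6e, Serpinb7, Serpinb9c to Serpinb9g, Serpinb11, Serpinb12 and Serpinb13. Up to 3 counts in a library are compatible with a count of 0, which allows these genes up to 0.0442 to 0.118 TPM. Several of them are best known in squamous epithelium. Of the 7 epidermal markers, 2 stood at 1 TPM, Krt10 with 4.34 and 5.11 TPM and Krt14 with 0.95 and 1.41 TPM, around the median of 0.195 TPM given above. Krt10 had 1.47 and 1.74 TPM under GENCODE M4.

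Of the 17 members at 1 TPM, 15 have more than 1 annotated transcript, and in 7 of these at least 2 transcripts held 10% of the TPM in both libraries. Serpinh1-203 held 60.5% of Serpinh1 in replicate 1 and 65.3% in replicate 2, and Serpinh1-201 held 33.4% and 28.4%. Both encode the same protein and start 125 bases apart. Under GENCODE M4, which has no entry for Serpinh1-203, the share of Serpinh1-201 was 96.0% and 95.5%.

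Serpinf1 was split further. The transcript Serpinf1-208, annotated as a target of nonsense-mediated decay, held 38.0% and 38.5%. The full-length Serpinf1-201 held 26.5% and 34.2%, at 38.3 and 45.1 TPM, and Serpinf1-203, a shorter coding transcript, held 24.8% and 19.5%. The gene's TPM is therefore mostly not that of its full-length transcript.

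The other 5 genes were as follows. Serpina1e-201 held 67.3% and 71.8% of Serpina1e, and Serpina1e-202, with the same coding sequence, 32.7% and 28.2%. Serpina10-202 held 79.4% in both libraries and Serpina10-201 20.6% in both. For Serpinb6a, Serpinb6a-203 held 62.1% and 64.4% and Serpinb6a-202, with the same coding sequence, 18.8% and 18.6%. Serpinb6b-203 held 81.1% and 65.5% of Serpinb6b and Serpinb6b-202 15.3% and 16.8%. Serpina3g-201 held 69.8% and 73.9% of Serpina3g and Serpina3g-202 30.2% and 26.1%. Serpina3g-202 rested on 10.1 and 5.57 counts, and Serpinb6b-202 on 46.0 and 37.4 counts. The posterior SD was 33.8% and 50.5% of the count for Serpinb6b-202 and 31.0% and 31.6% for Serpinb6a-202. These splits are therefore less sure than the levels of their genes. Apart from Serpinf1-208, all transcripts named here are annotated as coding, but their coding lengths differ. Serpinb6b-203 has 774 coding bases against 1131 in Serpinb6b-202, so most of the TPM of Serpinb6b is that of a shorter coding transcript. Serpina3g-202 has 10 coding bases against 744 in Serpina3g-201.

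The 2 libraries were compared gene by gene. Expected counts were scaled by TMM, and a gene was counted as differing where replicate 1 over replicate 2 lay beyond 2-fold and the scaled split of its counts fell outside the exact binomial interval (95%). None of the 21 members with a mean of at least 10 counts differed, against 244 of 14251 protein-coding genes (1.71%). With so small a share called in all, this does not set the members apart from other genes. The log2 ratios of the members ran from -0.20 for Serpine2 to 0.47 for Serpina3g, and their median size was 0.12, against 0.09 for protein-coding genes. The ratio favoured replicate 1 in 15 of the 21, against 7226 of 14251 protein-coding genes (50.7%). Scaling by spike-in counts moves every gene alike and brought the median log2 ratio of protein-coding genes to 0.12. The ratio then favoured replicate 1 in 17 of the 21 members, against 79.9% of protein-coding genes.

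For 6 of the 21 members (28.6%) the interval of the ratio left out 0 without passing 2-fold. The interval left out 0 in 3452 of 14251 protein-coding genes (24.2%), a share near that of the members. The log2 ratio was 0.06 for Serpina6 (0.04 to 0.08), 0.14 for Serpina10 (0.02 to 0.26) and 0.29 for Serpinb6b (0.005 to 0.57). It was -0.18 for Serpina1e (-0.28 to -0.07), -0.14 for Serpina1c (-0.25 to -0.02) and -0.20 for Serpine2 (-0.35 to -0.05). Under spike-in scaling the intervals of 10 members left out 0, all higher in replicate 1, against 6810 of 14251 protein-coding genes (47.8%), and those of Serpina1e, Serpina1c and Serpine2 held 0. With TMM, Serpina1a, Serpina1b and Serpina1d had ratios of 0.01, -0.004 and 0.06 with intervals that held 0. Such intervals cover counting error only and leave out the division of reads between copies, whose posterior SD for Serpina1c exceeded the counting error.

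**Figure D5:**
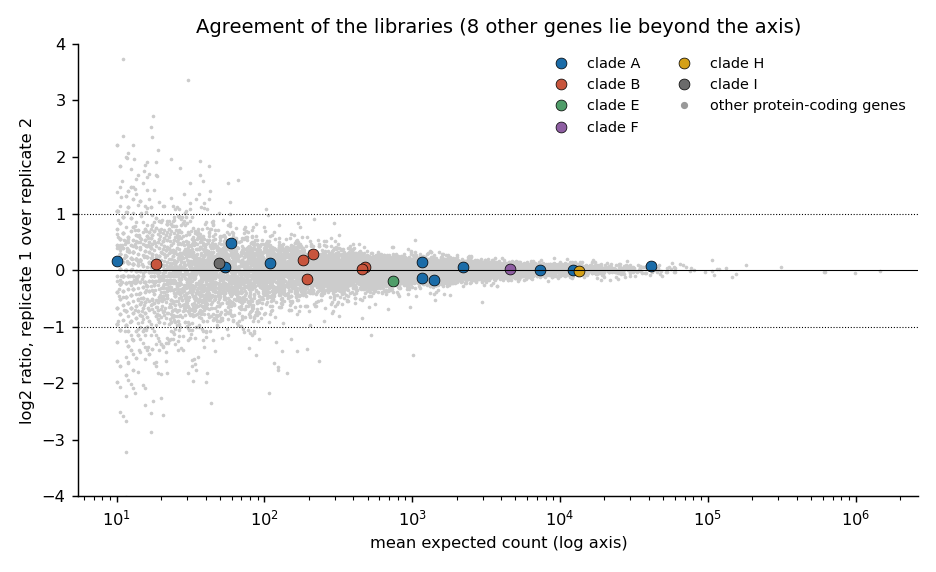
Log2 ratio of TMM-scaled expected counts, replicate 1 over replicate 2 (vertical axis), against the mean expected count (horizontal log axis) for the 21 members with a mean of at least 10 counts, in clade colours, and for the other protein-coding genes in grey; dotted lines mark 2-fold. The members lie between -0.20 and 0.47, and 8 other genes lie beyond the axis.

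Each library was also quantified under GENCODE M4, and all 56 members are present under both annotations. A gene was counted as differing where TPM + 1 under M21 over TPM + 1 under M4 lay beyond 1.5-fold, the same way in each library. None of the 17 members tested differed, against 592 of 11940 protein-coding genes (4.96%). The log2 differences of the members averaged over the libraries lay between -0.07 and 0.09, and 15 of the 17 were lower under M21, against 9092 of 11940 protein-coding genes (76.1%). The median protein-coding gene was lower under M21 by -0.04 on the same scale.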

How the data were processed

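Both libraries, which form 1 group, were used, at 38293265 and 35399872 expected counts. The expected counts are as deposited and need not be whole, since the authors' quantification divides reads between genes. TPM values were made by the authors, and each table also holds their posterior mean TPM and the posterior SD of every count. The notes deposited with the libraries name mm10 and GENCODE M4 and M21. For the aligner, the quantifier and the use of strand, nothing is given in the sources used here. Spike-ins held 4.99% and 5.40% of TPM.

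Gene names and coordinates came from GENCODE M21, and promoters from RefSeq GRCm38.p6. Libraries were scaled with TMM in edgeR 4.0.16 (R 4.3.3), with a prior count of 0.5 and no model fitted. Annotations were compared with a pseudocount of 1 TPM, after a filter at 1 TPM. Coding sequences were cut from the GENCODE M21 transcripts, which lie on mm10, and compared with Biopython 1.88, since no protein table was used. Window sharing means an exact match of 100 bases to a transcript of another gene, taken on the transcript of highest TPM among those with at least 900 coding bases, or among all coding ones where none has that length.

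Members with a mean of at least 1 TPM, and all Serpina1 and Serpina3 copies with a count, were named with both values. Of most partner lists, the 4 highest genes and up to 2 under 1 TPM were named, with more where values were equal. Nr3c1, Hsd11b2 and Hsd11b1 were added after their values were seen, as were Cela1, Gap43 and the epidermal markers at 1 TPM. Some of the genes and motifs examined are left unreported. A transcript was named at 10% of its gene in both libraries. The members and lists were chosen with earlier results of these data known. The label gives the pools as biological replicates. The labels name no molecular identifiers, and amplified reads are then not independent, so intervals and floors cover counting error only. Alternatives were scaling by DESeq2 1.42.0, by spike-ins and by total count, other count filters, thresholds and pseudocounts, posterior mean TPM, TPM without spike-ins, the M4 annotation and each library alone.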

Additional observations from a re-analysis of the deposited data

Results flagged for a closer look

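Serpinb10 is annotated as a polymorphic pseudogene and so lay outside the rule, yet it had counts above the 3 that a count of 0 allows. It was given 121 counts in replicate 1 and 73.6 in replicate 2, or 3.05 and 2.00 TPM, beside 202 and 164 counts for Serpinb2, whose exons it overlaps on the same strand. The posterior SD of the count was 1.21 and 0.98 counts for Serpinb10, and the same for Serpinb2. Beyond these values, the part of the overlap in the level of each gene was not tested.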

How the results depend on the processing

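Of 150 recomputed pairs of result and setting, 127 stayed within 1.5 times the count or 1 SD of the value, and 23 moved. With 2 libraries, each library alone always lies within 1 SD of their mean. Levels and shares therefore could not move when a library was left out. This holds for 22 single levels and shares without replicate 1 and 22 without replicate 2. It also holds for the summed TPM of members, the share of Serpina1b and the posterior spread of the copies. All those pairs say nothing of robustness. The summed TPM of members was 1991 TPM without spike-ins in the total and 1939 TPM under M4, against 1888 TPM. The share of Serpina1b was 50.1% over expected counts, against 49.6%. With posterior mean TPM, 11 members in place of 7 had at least 2 transcripts at 10%, and Serpina3g held 69.2% of its group, against 79.5%. Other single levels moved by more than 1 SD, mostly with the spike-ins left out or under M4. No member differed between the libraries or the annotations under any setting tried. With each library alone, the members at 1 TPM were 17 to 18. No paired analysis was possible because the labels give a single group. Members under 10 counts cannot be ordered at this depth, and a single stage says nothing of change.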
